A study of Mus musculus with 12 samples.

Results

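The transition from embryonic stem cells (ESCs) to epiblast-like cells (EpiLCs) was examined in mouse cells in which 3 enzymes of pyruvate metabolism, *Pcx*, *Me1* and *Me2*, were repressed together. The comparison used the 6 libraries of the 3xKD line out of 12 libraries in the series, 3 from ESCs and 3 from EpiLCs day 2, and the 6 libraries of the Neg line served as the reference transition. Members were chosen by sample title and library name. The cell-type field of the labels was not used for grouping, because it gives 1 state to all libraries of a line, whereas the titles give both states for both lines.

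All 12 libraries came from the E14 mouse ESC line with a doxycycline (DOX)-inducible CRISPRi repressor (E14-DOX-CRISPRi), which the study derived from 1 chosen clone. In CRISPR interference (CRISPRi) a catalytically inactive Cas9 is directed by guide RNAs to a start site, where the repressor domains fused to it lower transcription. The Neg line carried 4 scramble guide RNAs and the 3xKD line carried guide RNAs against the 3 enzymes, both on PiggyBac vectors with antibiotic selection. All cells were seeded on fibronectin in N2B27 medium with 2iLIF. ESCs stayed in this medium, EpiLCs were taken on day 2 of culture in FAX medium (activin A, FGF2 and the tankyrase inhibitor XAV939), and both were harvested in parallel, all at low oxygen. The labels do not name DOX, while the study describes the Neg and 3xKD cells whose expression it shows as having received it. Every fold change below between states carries the change of medium, which cannot be told apart from the change of state. Only 1 Neg line and 1 3xKD line were sequenced. In every comparison of the lines, repression of the enzymes cannot be told apart from other differences between these lines. Nothing in the labels says that the 3 libraries of a group came from separate cultures, and the p-values therefore measure the spread between libraries, which may be technical.

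ESCs in 2iLIF resemble the naive epiblast of the pre-implantation embryo and keep a network of transcription factors such as NANOG, ESRRB, KLF4 and TFCP2L1 active. EpiLCs correspond to formative pluripotency after implantation. The naive network is shut down on the way, *Otx2*, *Pou3f1*, *Fgf5* and the de novo DNA methyltransferases come up, and *Pou5f1* and *Sox2* are retained. Pyruvate carboxylase (*Pcx*) makes oxaloacetate from pyruvate in mitochondria. The malic enzymes ME1, in the cytosol, and ME2, in mitochondria, turn malate back into pyruvate, so that the 3 enzymes together form a pyruvate cycle.

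The guide sequences show where on 2 of the 3 genes the repressor was placed. Each is printed 5′ to 3′ in lower case, followed by the PAM read from the genome in capitals. The guide sequences came from the study's guide table and each matched its chromosome of GRCm39 once.
Pcx: aggcaggggccgtcagaggCGG
Me1: gagaagcgctgagtcacggCGG
The *Pcx* guide lay at chr19:4560559-4560577 on the plus strand, in an exon of the canonical transcript and with its middle 83 bases downstream of the start site. The *Me1* guide lay at chr9:86577958-86577976, also on the plus strand whereas the gene is on the minus strand, in an exon of the canonical transcript and 137 bases downstream of the start site. Exons and start sites are those of GENCODE vM39.

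Values are given per library as CPM (counts scaled to a fixed library total), computed from the gene sums of the authors' estimated counts with edgeR's TMM factors. A gene is called higher or lower in EpiLCs when edgeR's quasi-likelihood test gave it an adjusted p under 0.01 and its log2 fold change exceeded 0.58 in size. A difference between the lines is the log2 fold change in 3xKD minus that in Neg, tested as an interaction and called when its adjusted p was under 0.01, whatever its size. The estimated counts of the 6 3xKD libraries summed to between 15334837 and 16586179, those of the 6 Neg libraries to between 11221023 and 19652197, and 25446 of 57180 genes had at least 10 counts in total and were tested. Mitochondrial transcripts took between 0.764% and 1.26% of the counts in every library. No pair of replicates agreed within sampling noise (chi-square of 2.99 to 18.4 per degree of freedom). Where a mean is given, its error is the SD of 3 libraries, and a log2 fold change carries its standard error (SE).

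The 3 repressed enzymes were lower in 3xKD than in Neg in both states, and no difference between their transitions was called. *Pcx* (chr19:4559902-4672189) was at 16.2, 16.3 and 16.8 CPM in the 3xKD ESCs and 24.5, 23.6 and 25.6 CPM in the 3xKD EpiLCs, against 36.3, 36.8 and 35.7 CPM in the Neg ESCs and 46.7, 49.4 and 57 CPM in the Neg EpiLCs. All 6 3xKD libraries lay below all 6 Neg libraries, and within 3xKD the EpiLC libraries lay above the ESC libraries. The log2 fold change of *Pcx* in 3xKD was 0.58 ± 0.0724 (SE), adjusted p = 4.4e-06, which is at the fold limit. This call was lost without 3xKD ESC library 2 (0.577), without 3xKD EpiLC library 3 (0.561) and with transcript-length offsets (0.32). *Me1* (chr9:86462646-86578104) was at 37.2, 38.6 and 36.2 CPM in the 3xKD ESCs and 17.8, 17.6 and 15 CPM in the 3xKD EpiLCs, against 67.5, 70.1 and 69.8 CPM in the Neg ESCs and 33.1, 35.7 and 35.5 CPM in the Neg EpiLCs. The malic enzyme of the cytosol fell in both lines, by a log2 fold change of -1.15 ± 0.0633 (SE), adjusted p = 1.9e-10 in 3xKD. *Me2* was at 53, 54.1 and 49.6 CPM in the 3xKD ESCs and 37.5, 35.1 and 35.3 CPM in the 3xKD EpiLCs, against 103, 104 and 96.4 CPM in the Neg ESCs and 72.8, 70.7 and 69.2 CPM in the Neg EpiLCs, and its log2 fold change of -0.54 ± 0.0492 (SE) in 3xKD did not pass the fold limit. In ESCs the 3xKD libraries were lower than the Neg libraries by log2 fold changes of -1.14 for *Pcx*, -0.89 for *Me1* and -0.95 for *Me2*, and in EpiLCs by -1.05, -1.05 and -0.98. The difference between the transitions was 0.09 ± 0.0973 (SE) for *Pcx*, -0.16 ± 0.0856 (SE) for *Me1* and -0.03 ± 0.0671 (SE) for *Me2*, with adjusted p of 0.64, 0.27 and 0.87.

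The 3xKD cells changed many genes on the way to EpiLCs. In the 3xKD EpiLCs 2396 genes (9.42% of those tested) were called higher and 2372 (9.32%) lower than in the 3xKD ESCs, 18.7% in all. Larger than 4-fold changes were called for 569 genes that rose and 505 that fell. The same limits called 5292 genes (20.8%) in the Neg line, 9.78% higher and 11.0% lower. Among the 15032 genes that averaged at least 1 CPM 2046 were called higher and 2149 lower in 3xKD, and 2094 and 2514 in Neg. The counts of the gene lists below are to be read beside these numbers. Of 17054 protein-coding genes 24.0% were called in 3xKD, 1953 higher and 2144 lower. Long non-coding RNAs were called for 11.5% of 3796 genes, 274 higher and 161 lower, and pseudogenes for 5.65% of 2710, 115 higher and 38 lower.

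Most calls were shared by the lines. Of the genes called higher in 3xKD, 1594 were also called higher in Neg (66.5% of the 3xKD calls and 64.0% of the Neg calls), and of those called lower 1830 were shared (77.2% and 65.3%). Only 23 genes were called in opposite directions. Across the 15032 genes that averaged at least 1 CPM the log2 fold changes of the lines had a Pearson's r of 0.774 and a Spearman's rho of 0.795, a description across genes, which are not independent. The difference between the lines was called for 2553 genes (10%), with 1211 (4.76%) above 0 and 1342 (5.27%) below 0. The split depended on the scaling: with library size alone in place of TMM it was 1522 above and 824 below 0. With transcript-length offsets 731 differences were called, 337 above and 394 below 0.

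**Figure D1:**
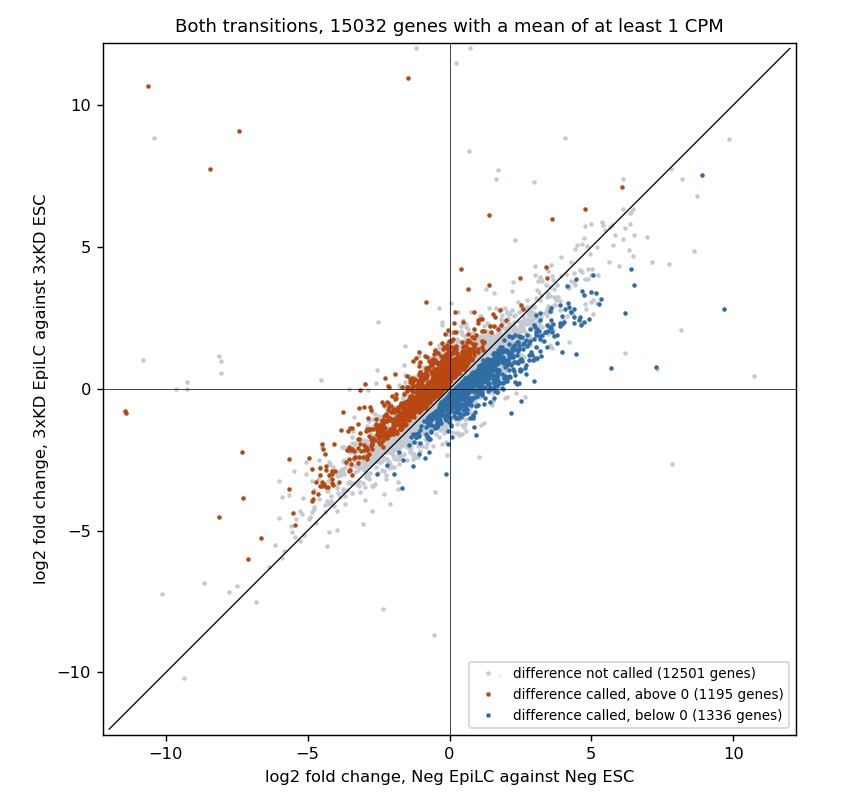
Log2 fold change of each gene in the Neg transition (horizontal axis) and in the 3xKD transition (vertical axis) for the 15032 genes that averaged at least 1 CPM; values beyond 12 are drawn at 12, and the diagonal marks equal change. Genes whose difference between the lines was called are coloured, 1195 above 0 in red and 1336 below 0 in blue, and most points lie along the diagonal.

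Among the genes called in the same direction in both lines, most called differences were towards a smaller change in 3xKD. Of the shared higher genes 255 rose less and 61 rose more in 3xKD than in Neg, and of the shared lower genes 310 fell less and 49 fell more. A gene called in 1 line alone was mostly not one whose difference was called. The difference was called for 212 of 784 genes called higher in 3xKD alone, 107 of 537 called lower in 3xKD alone, 291 of 890 called higher in Neg alone and 298 of 955 called lower in Neg alone. The median ratio of the 3xKD to the Neg log2 fold change was 0.747 over the 4608 genes called in Neg with a mean of at least 1 CPM. Over the 4195 genes called in 3xKD it was 0.954, and each of these ratios favours the line in which the genes were called.

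The naive transcription factors fell in the 3xKD line, and by less than in Neg. Of 16 factors 13 were called lower and 1 higher in 3xKD EpiLCs, with a median log2 fold change of -2.51 (all genes tested, 0.01). In Neg, 14 were called lower, with a median of -3.79. The difference was above 0 for all 16 factors and called for 12 of them, or 10 with transcript-length offsets. In bulk RNA, fewer cells that express a gene and less RNA of it per cell cannot be told apart. *Nanog* (chr6:122679780-122691601), a homeodomain factor of the naive network, was at 1106, 1099.5 and 1121 CPM in the 3xKD ESCs and 72.9, 75.9 and 77.9 CPM in the 3xKD EpiLCs. In Neg it was at 1015, 1052 and 993 CPM in the Neg ESCs and 33.9, 36.2 and 37.8 CPM in the Neg EpiLCs. The ESC libraries of the lines lay close together, while the 3 3xKD EpiLC libraries lay above all Neg EpiLC libraries. The log2 fold change of *Nanog* was -3.87 ± 0.0426 (SE), adjusted p = 5.2e-19 in 3xKD and -4.83 in Neg, a difference of 0.95 ± 0.0575 (SE), adjusted p = 1.0e-08.

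*Esrrb*, an orphan nuclear receptor of the same network, was at 898, 904 and 912 CPM in the 3xKD ESCs and 124, 119 and 116 CPM in the 3xKD EpiLCs, and its log2 fold change of -2.92 ± 0.0359 (SE) compared with -4.15 in Neg (difference 1.23 ± 0.0490 (SE), adjusted p = 1.7e-10). *Klf4* was at 264, 266 and 271 CPM in the 3xKD ESCs and 28.2, 27.3 and 26.1 CPM in the 3xKD EpiLCs and *Klf2* at 240.5, 245 and 241 CPM in the 3xKD ESCs and 67.9, 63.9 and 68.6 CPM in the 3xKD EpiLCs. These Krüppel-like factors fell by log2 fold changes of -3.30 ± 0.0513 (SE) and -1.86 ± 0.0346 (SE) in 3xKD, with differences of 1.40 and 0.87 to Neg. *Tfcp2l1*, a grainyhead-like activator of naive genes, fell from 885 ± 19.5 CPM to 89.1 ± 3.76 CPM (log2 fold change -3.31, difference 0.84). *Nr5a2*, a nuclear receptor upstream of *Pou5f1*, fell from 39.6 ± 3.71 CPM to 4.09 ± 0.396 CPM (difference 1.21). In Neg, *Klf2* averaged 430 CPM in ESCs and 64.7 CPM in EpiLCs, and *Nr5a2* 97.7 and 4.35 CPM. Both *Klf2* and *Nr5a2* thus ended near their Neg EpiLC level, from a lower ESC level in 3xKD.

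Smaller falls in 3xKD did not all end at a higher level. *Zfp42* (REX1), the zinc finger gene used as a naive reporter, was at 226, 212 and 206 CPM in the 3xKD ESCs and 47.2, 48.1 and 53.7 CPM in the 3xKD EpiLCs and at 528, 518 and 502 CPM in the Neg ESCs and 48.2, 47.4 and 48.2 CPM in the Neg EpiLCs. The EpiLC libraries of the lines lay close together, and the ESC libraries of 3xKD lay below those of Neg, so that the log2 fold change was -2.11 ± 0.0478 (SE) in 3xKD and -3.43 in Neg (difference 1.32 ± 0.0666 (SE), adjusted p = 1.5e-09). *Tbx3* fell from 360.3 ± 10.4 CPM to 33 ± 1.46 CPM in 3xKD and from 512 ± 8.71 CPM to 26.2 ± 0.311 CPM in Neg, and its difference of 0.84 was lost with transcript-length offsets. *Prdm14*, a repressor of the methylation machinery and of FGF signalling in naive cells, was among the strongest falls, from 46.2 ± 1.25 CPM to 1.22 ± 0.238 CPM, and its difference of 0.21 ± 0.178 (SE) was not called. *Gbx2*, a homeobox gene downstream of LIF and STAT3, was the exception. It was at 8.97, 7.68 and 10.2 CPM in the 3xKD ESCs and 37.9, 32.9 and 37.1 CPM in the 3xKD EpiLCs and at 21.4, 20.8 and 26 CPM in the Neg ESCs and 24.5, 25.1 and 27.2 CPM in the Neg EpiLCs. It rose in 3xKD alone (log2 fold change 2.01 ± 0.104 (SE), adjusted p = 9.2e-11), from an ESC level below every Neg library to an EpiLC level above every Neg library, with a difference of 1.84 ± 0.143 (SE), adjusted p = 1.7e-07.

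**Figure D2:**
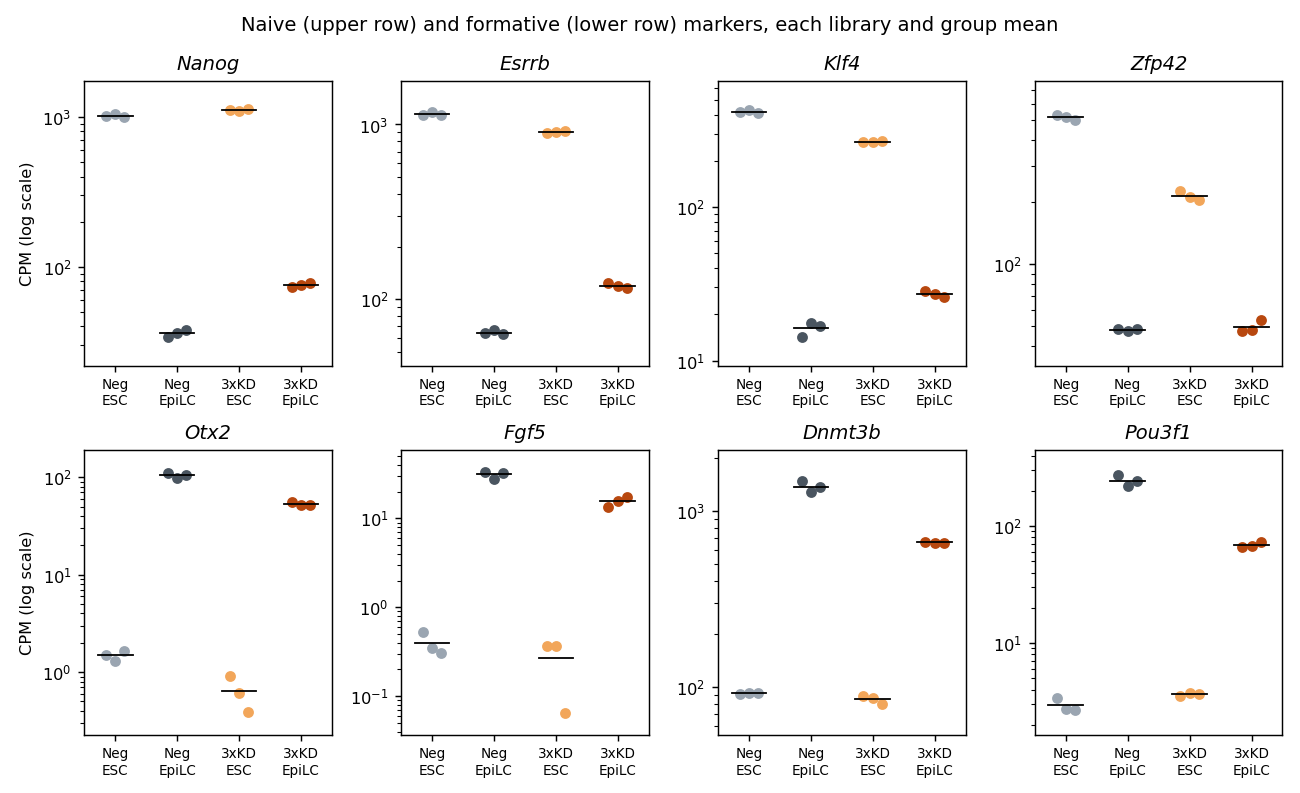
CPM (log axis) of 4 naive genes in the upper panels and 4 formative genes in the lower panels in each of the 12 libraries (points), with the mean of each group as a line; Neg is grey and 3xKD orange, ESCs in the lighter shade. The 3xKD EpiLCs sit above the Neg EpiLCs for *Nanog*, *Esrrb* and *Klf4*, and below them for *Otx2*, *Fgf5*, *Dnmt3b* and *Pou3f1*.

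Naive markers that are not transcription factors were less uniform. Of 16 such markers 10 fell and 1 rose in 3xKD (median -1.24), against 13 and 2 in Neg (median -1.76). The difference was called above 0 for 11 and below 0 for 4, or 7 and 3 with transcript-length offsets. *Dppa3* (Stella), which protects DNA from methylation in the oocyte and naive cells, was at 7.93, 6.1 and 8.17 CPM in the 3xKD ESCs and 1.3, 1.47 and 1.75 CPM in the 3xKD EpiLCs, with a log2 fold change of -2.29 ± 0.155 (SE) and a difference of 2.09 ± 0.255 (SE), adjusted p = 2.2e-05. *Jam2*, a junctional adhesion molecule, fell from 168 ± 10.1 CPM to 13.5 ± 0.759 CPM (difference 1.17), and *Mylpf*, a myosin light chain, from 57.5 ± 3.67 CPM to 6.9 ± 2.3 CPM (difference 1.52). *Tdh*, the threonine dehydrogenase on which mouse ESCs depend for one-carbon units, fell from 193 ± 4.54 CPM to 6.89 ± 0.587 CPM in 3xKD and from 476 ± 17.1 CPM to 11 ± 1.03 CPM in Neg. *Dppa5a* went from 854 ± 4.49 CPM to 693 ± 31.5 CPM in 3xKD, which was not called, and its difference of -0.37 was called below 0.

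Formative and primed transcription factors rose in both lines. Of 16 factors 13 rose and 1 fell in 3xKD, with a median log2 fold change of 1.83 against 2.12 in Neg. The differences went both ways, with 4 called above and 5 below 0. *Otx2* (chr14:48894099-48911276), the homeobox gene that directs enhancer choice in formative cells, was at 0.922, 0.610 and 0.392 CPM in the 3xKD ESCs and 55.2, 51.3 and 52.4 CPM in the 3xKD EpiLCs and at 1.51, 1.31 and 1.63 CPM in the Neg ESCs and 109.7, 97.5 and 106 CPM in the Neg EpiLCs. All EpiLC libraries of 3xKD lay below all of Neg, and so did the ESC libraries, and the difference in fold change was not called (log2 6.34 ± 0.125 (SE) in 3xKD, difference 0.22 ± 0.240 (SE), adjusted p = 0.71). *Pou3f1* (OCT6) was at 3.56, 3.78 and 3.66 CPM in the 3xKD ESCs and 66.3, 67.1 and 73.5 CPM in the 3xKD EpiLCs and at 3.37, 2.75 and 2.7 CPM in the Neg ESCs and 271, 222 and 241 CPM in the Neg EpiLCs. Its ESC levels were close and its EpiLC level was lower in 3xKD, with log2 fold changes of 4.23 ± 0.0947 (SE) in 3xKD and 6.40 in Neg (difference -2.17 ± 0.167 (SE), adjusted p = 1.6e-07).

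*Sox3*, a SOXB1 factor of the epiblast, rose from 16 ± 0.542 CPM to 35.6 ± 0.718 CPM in 3xKD and from 10.7 ± 0.511 CPM to 47.6 ± 2.04 CPM in Neg (difference -1.0). *Zic2* rose from 116 ± 6.0 CPM to 413 ± 15.7 CPM in 3xKD and from 171 ± 1.82 CPM to 661 ± 16.3 CPM in Neg, and its difference of -0.12 ± 0.0558 (SE) was not called. *Myc* went the other way. It was at 1.29, 0.976 and 0.849 CPM in the 3xKD ESCs and 67.9, 64 and 67.9 CPM in the 3xKD EpiLCs, against 3.1, 4.13 and 5.71 CPM in the Neg ESCs and 52.7, 55.1 and 57 CPM in the Neg EpiLCs, with log2 fold changes of 5.99 ± 0.148 (SE) and 3.61 and a difference of 2.38 ± 0.229 (SE), adjusted p = 1.9e-06. The 3xKD ESC libraries held less *Myc* than any Neg ESC library, and the 3xKD EpiLC libraries held more than any Neg EpiLC library. *Nkx1-2* was the factor that fell, from 2.08 ± 0.489 CPM to 0.125 ± 0.165 CPM.

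Formative and primed markers outside transcription factors rose less in 3xKD where the lines differed. Of 16 markers 12 rose and 1 fell in 3xKD (median 2.15; Neg 2.92), and all 5 called differences lay below 0. *Fgf5* (chr5:98401780-98452320), the growth factor that marks the formative epiblast, was at 0.369, 0.366 and 0.0653 CPM in the 3xKD ESCs and 13.3, 15.9 and 17.4 CPM in the 3xKD EpiLCs and at 0.532, 0.344 and 0.306 CPM in the Neg ESCs and 33, 28.1 and 32.8 CPM in the Neg EpiLCs. Its EpiLC level in 3xKD lay below all Neg EpiLC libraries, but the difference in fold change, -0.55 ± 0.520 (SE), was not called (adjusted p = 0.57), with ESC levels under 1 CPM in every library. *Dnmt3b*, a de novo DNA methyltransferase, was at 89, 86.5 and 80.7 CPM in the 3xKD ESCs and 669, 660.0 and 659.9 CPM in the 3xKD EpiLCs and at 91.7, 92.3 and 92.7 CPM in the Neg ESCs and 1466, 1273 and 1363 CPM in the Neg EpiLCs. The ESC levels were close and the EpiLC levels did not overlap, and the difference was -0.93 ± 0.0661 (SE), adjusted p = 5.9e-08. *Pim2*, a serine and threonine kinase, rose from 21 ± 0.289 CPM to 207 ± 4.83 CPM in 3xKD and from 27.3 ± 2.37 CPM to 732 ± 55.9 CPM in Neg (difference -1.44 ± 0.0873 (SE), adjusted p = 1.0e-08). *Car4*, a carbonic anhydrase, and *Epha1*, an ephrin receptor, rose by log2 6.80 and 3.26 in 3xKD, with EpiLC means of 28.7 and 8.06 CPM that lay above the Neg EpiLC means of 12.7 and 5.7 CPM, and neither difference was called.

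DNA methylation genes showed the same split of the lines in part. Of the 12 genes listed 4 rose and 2 fell in 3xKD (Neg 5 and 3). The difference was called above 0 for 4 and below 0 for 6. *Dnmt3a*, *Dnmt3b*, *Dnmt3l*, *Dppa3*, *Tet2* and *Zfp57* are also members of the naive or formative lists above. *Dnmt3a* rose from 182 ± 1.66 CPM to 824 ± 21.9 CPM in 3xKD and from 139 ± 6.3 CPM to 1114 ± 35.6 CPM in Neg (difference -0.82 ± 0.0533 (SE), adjusted p = 2.3e-08). *Dnmt3l*, the catalytically inactive partner of both enzymes, rose by log2 2.88 in 3xKD and 2.97 in Neg, a difference that was not called. *Uhrf1*, which brings the maintenance enzyme to replicated DNA, fell from 921 ± 9.75 CPM to 549 ± 5.84 CPM (difference -0.40), and the maintenance enzyme *Dnmt1* went from 363 ± 3.12 CPM to 282 ± 4.09 CPM, which was not called. *Tet1*, a methylcytosine dioxygenase, rose from 423 ± 5.65 CPM to 1037 ± 45.5 CPM in 3xKD. *Tet2* was at 222, 213 and 222 CPM in the 3xKD ESCs and 237, 234 and 219 CPM in the 3xKD EpiLCs and fell in Neg alone (log2 -0.69, 3xKD 0.07, difference 0.77 ± 0.0675 (SE), adjusted p = 7.9e-07).

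Core pluripotency genes mostly rose or were not called. Of 14 genes 7 rose and 1 fell in 3xKD, the same counts as in Neg. Called differences lay above 0 for 2 and below 0 for 7 genes, beside 4.76% and 5.27% of all genes tested. With transcript-length offsets they were 0 and 3. *Pou5f1* (OCT4) was at 589.8, 586 and 573 CPM in the 3xKD ESCs and 505, 517 and 536 CPM in the 3xKD EpiLCs, within the fold limit at a log2 fold change of -0.17 ± 0.0376 (SE), and its difference to Neg of -0.35 was called. *Sox2* was the gene that fell, from 339.5 ± 11.4 CPM to 218 ± 7.75 CPM in 3xKD and from 409.8 ± 10.7 CPM to 243 ± 7.09 CPM in Neg. Its call in 3xKD was lost with upper-quartile factors (-0.569). *Lin28a*, an RNA-binding protein that blocks let-7 maturation, rose from 22.2 ± 0.808 CPM to 322 ± 7.85 CPM (difference -0.59), and *Utf1*, a chromatin-bound factor, from 26.1 ± 1.39 CPM to 578 ± 20.5 CPM (difference 0.17 ± 0.0603 (SE), not called). *Foxp1* was at 19.4, 20.2 and 21.6 CPM in the 3xKD ESCs and 104, 99.2 and 98.2 CPM in the 3xKD EpiLCs and at 9.22, 9.64 and 7.8 CPM in the Neg ESCs and 188, 178 and 190.3 CPM in the Neg EpiLCs. This forkhead factor rose in both lines and by less in 3xKD, where the ESC level was already higher (difference -2.10 ± 0.0895 (SE), adjusted p = 3.1e-10). *Dppa4* rose more in 3xKD (log2 1.63 against 1.19). The differences of *Lin28a* and *Dppa4* were lost with transcript-length offsets.

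Genes of the 2-cell-like state rose in 3xKD and mostly not in Neg. This state is a rare and reversible one in ESC cultures that expresses genes of zygotic genome activation. Of 13 such genes 9 rose in 3xKD, with a median log2 fold change of 0.96, and 1 rose and 2 fell in Neg, with a median of -0.01. All 13 lay above 0 in 3xKD. The difference was called above 0 for 9 genes, also with transcript-length offsets. In these counts and medians the *Zscan4* copies, which are near-identical and not independent, are counted singly. Outside them *Zfp352*, *Tcstv1* and *Duxf3* were called higher in 3xKD, and *Tcstv3*, *Tmem92*, *Usp17la* and *Usp17lc* were not. Called differences outside them were those of *Zfp352*, *Usp17la* and *Usp17lc*. *Zscan4c* (chr7:10739648-10744474), a zinc finger gene that extends telomeres, was at 84.9, 69.7 and 93.3 CPM in the 3xKD ESCs and 151, 144 and 134 CPM in the 3xKD EpiLCs and at 67.5, 71.4 and 77.1 CPM in the Neg ESCs and 70.5, 63.2 and 56.7 CPM in the Neg EpiLCs. *Zscan4d* was at 77, 79.5 and 76.4 CPM in the 3xKD ESCs and 158, 135 and 139 CPM in the 3xKD EpiLCs and at 75.7, 74.2 and 79.7 CPM in the Neg ESCs and 71.1, 66.2 and 77.5 CPM in the Neg EpiLCs. In both genes the 3 3xKD EpiLC libraries stood above the other 9, which overlapped. The log2 fold changes in 3xKD were 0.79 ± 0.0890 (SE), adjusted p = 1.3e-06 and 0.89 ± 0.0598 (SE), adjusted p = 2.4e-09, and the differences 0.98 ± 0.129 (SE), adjusted p = 4.8e-05 and 0.99 ± 0.0860 (SE), adjusted p = 6.5e-07.

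*Zscan4b* rose from 33.8 ± 4.51 CPM to 79 ± 3.34 CPM in 3xKD (log2 1.23 ± 0.0915 (SE), difference 1.18). *Duxf3* (*Dux*), the factor that switches the state on, was at 2.83, 2.01 and 3.4 CPM in the 3xKD ESCs and 11.2, 10.2 and 10.1 CPM in the 3xKD EpiLCs and rose in both lines, with a difference of 0.63 ± 0.248 (SE) that was not called (adjusted p = 0.10). Copies of *Zscan4* are nearly identical, and reads can be split between them. Summed over 10 *Zscan4* genes, a total that was not tested, the level was 739.5, 705.7 and 730.6 CPM in the 3xKD ESCs and 1512, 1446 and 1426 CPM in the 3xKD EpiLCs, a 2.01-fold rise. In Neg it was 615.6, 640.9 and 664.2 CPM and then 682.2, 589.8 and 657.4 CPM.

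**Figure D3:**
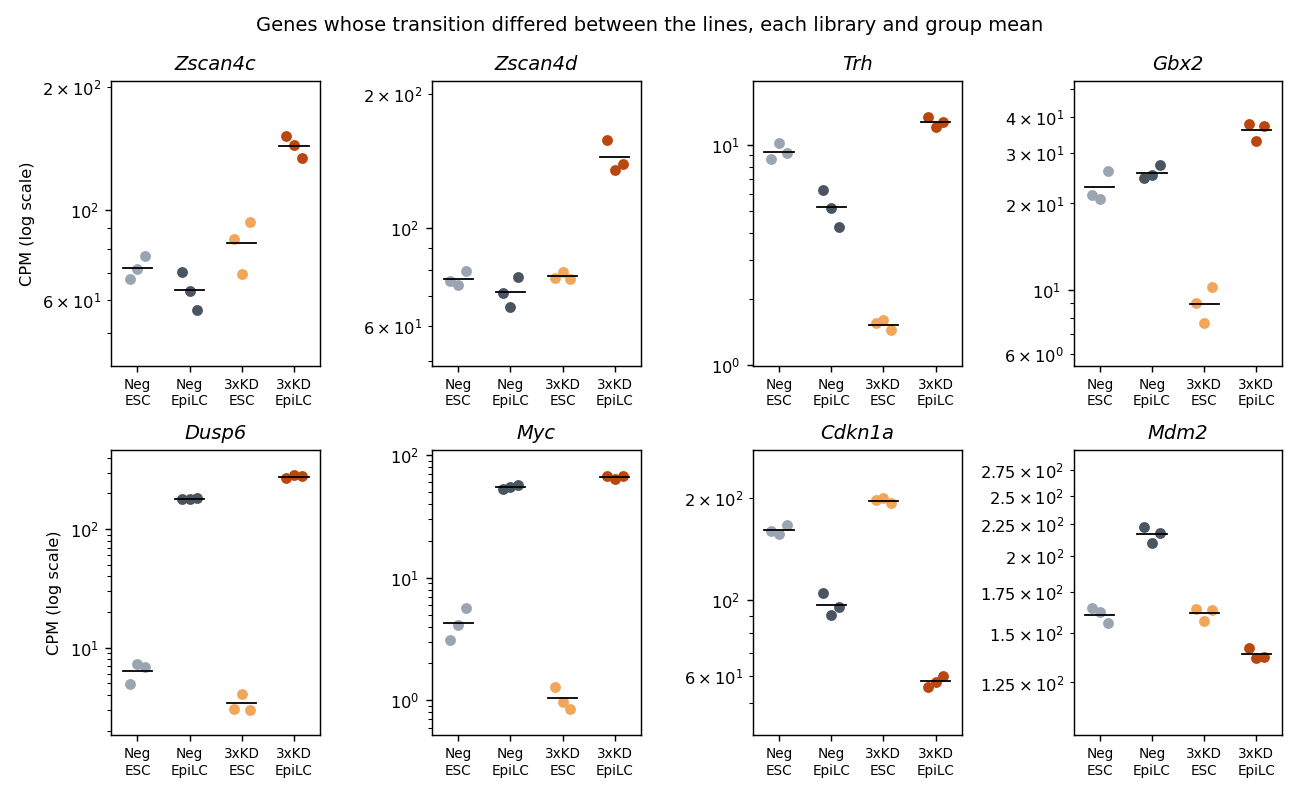
CPM (log axis) in each of the 12 libraries (points), with group means as lines, for 8 genes whose change between ESCs and EpiLCs was called different in 3xKD and Neg. *Zscan4c* and *Zscan4d* rise only between the 3xKD groups, *Trh* goes in opposite directions in the lines, and *Gbx2*, *Dusp6* and *Myc* start lower in the 3xKD ESCs and end higher in the 3xKD EpiLCs, whereas *Cdkn1a* and *Mdm2* end lower.

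Receptors and targets of LIF signalling, which sustains naive ESCs through STAT3, fell where they were called. Of 12 genes 3 fell in 3xKD and 4 in Neg, beside 9.32% and 11.0% of all genes tested. Among the 15032 genes that averaged at least 1 CPM 2149 fell in 3xKD and 2514 in Neg, which are larger shares. *Il6st* (gp130), the shared receptor subunit, was at 64.4, 62.4 and 62.6 CPM in the 3xKD ESCs and 54, 47.5 and 51.5 CPM in the 3xKD EpiLCs and at 97.3, 108 and 107 CPM in the Neg ESCs and 37.9, 41.9 and 42.2 CPM in the Neg EpiLCs. It fell in Neg and was not called in 3xKD (difference 1.05 ± 0.0799 (SE), adjusted p = 1.3e-07). *Stat3* fell from 146 ± 8.74 CPM to 61 ± 3.25 CPM in 3xKD and from 138 ± 4.25 CPM to 35.2 ± 1.62 CPM in Neg (difference 0.71). The feedback inhibitor *Socs3* fell from 69.6 ± 2.55 CPM to 22.4 ± 1.17 CPM in 3xKD and from 36.2 ± 0.895 CPM to 10.3 ± 0.947 CPM in Neg, and its difference of 0.17 ± 0.0916 (SE) was not called. The differences of *Il6st* and *Stat3* were lost with transcript-length offsets.

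In the FGF and MAPK pathway, which FGF2 in the EpiLC medium engages and which the MEK inhibitor in 2i blocks, most of the genes rose. Of 26 genes 15 rose in 3xKD and the other 11 were not called, with a median of 1.03 (1.13 in Neg). The difference was called above 0 for 7 and below 0 for 4, or 4 and 4 with transcript-length offsets. Among ligands and receptors, *Fgf4*, the main autocrine FGF of ESCs, was at 119, 114 and 117 CPM in the 3xKD ESCs and 109, 111.3 and 112 CPM in the 3xKD EpiLCs and at 79.2, 82.2 and 79.1 CPM in the Neg ESCs and 247, 243 and 247 CPM in the Neg EpiLCs. It rose in Neg and not in 3xKD (log2 1.62 and -0.07 ± 0.0321 (SE), difference -1.69 ± 0.0455 (SE), adjusted p = 2.6e-12), and the 3xKD ESC libraries lay above those of Neg. The receptor *Fgfr1* was not called in either line (log2 -0.05 in 3xKD). *Fgfr2* went from 8.18 ± 0.303 CPM to 12.6 ± 1.22 CPM in 3xKD and from 2.74 ± 0.452 CPM to 15.7 ± 0.642 CPM in Neg (difference -1.86 ± 0.160 (SE), adjusted p = 6.0e-07). Its call in 3xKD (log2 0.63) was lost without 3xKD EpiLC library 3 (0.557).

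Among targets and feedback inhibitors, *Dusp6* (chr10:99086564-99103361), the phosphatase of ERK, was at 3.07, 4.09 and 3.01 CPM in the 3xKD ESCs and 269.9, 284 and 278 CPM in the 3xKD EpiLCs and at 4.96, 7.3 and 6.88 CPM in the Neg ESCs and 180.3, 179.5 and 182 CPM in the Neg EpiLCs. The 3xKD libraries were lower than Neg in ESCs and higher in EpiLCs, and the log2 fold change of 6.35 ± 0.0857 (SE), adjusted p = 3.3e-18 exceeded that in Neg by 1.56 ± 0.140 (SE), adjusted p = 9.7e-07, a difference that was lost with transcript-length offsets. *Spry2* rose from 12.1 ± 0.644 CPM to 70.3 ± 2.76 CPM in 3xKD and from 40.3 ± 2.18 CPM to 122 ± 2.38 CPM in Neg (difference 0.94), and *Spry4*, another Sprouty inhibitor, from 0.517 ± 0.165 CPM to 72.8 ± 1.26 CPM and from 1.83 ± 0.207 CPM to 125 ± 1.85 CPM. *Etv4*, an ETS factor downstream of ERK, was at 15.3, 17.6 and 14.8 CPM in the 3xKD ESCs and 84, 76.9 and 76.9 CPM in the 3xKD EpiLCs and at 27.7, 34.6 and 33.6 CPM in the Neg ESCs and 62.1, 64.7 and 67.6 CPM in the Neg EpiLCs (difference 1.31 ± 0.110 (SE), adjusted p = 4.5e-07), whereas *Etv5* was not called (log2 0.05). *Egr1*, an immediate early gene, rose from 1.4 ± 0.112 CPM to 15.2 ± 0.476 CPM in 3xKD and from 1.66 ± 0.331 CPM to 41.3 ± 3.64 CPM in Neg, by less in 3xKD (difference -1.23 ± 0.198 (SE), adjusted p = 3.1e-04).

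The WNT readout, which the GSK3 inhibitor in 2i raises and XAV939 lowers, split. Of 19 genes 3 rose and 7 fell in 3xKD (6 and 8 in Neg). *Axin2*, a feedback inhibitor, was at 49.3, 45.4 and 46.1 CPM in the 3xKD ESCs and 33.4, 29 and 27.2 CPM in the 3xKD EpiLCs and at 91.5, 88.6 and 90.1 CPM in the Neg ESCs and 24.5, 26 and 27.1 CPM in the Neg EpiLCs, and it fell less in 3xKD (log2 -0.65 ± 0.0655 (SE), difference 1.15 ± 0.0923 (SE), adjusted p = 2.6e-07). The EpiLC levels of the lines were close and the 3xKD ESCs held less of it than the Neg ESCs. The fall in 3xKD was not called without 3xKD EpiLC library 3 (-0.58), with upper-quartile factors (-0.578) or with transcript-length offsets (-0.524). *Sp5*, a direct target, fell from 3.56 ± 0.0539 CPM to 0.146 ± 0.0345 CPM in 3xKD and from 19.9 ± 1.4 CPM to 0.0627 ± 0.0632 CPM in Neg. *Tcf7l1*, the repressor that counters naive genes, fell from 143 ± 3.18 CPM to 68.9 ± 3.18 CPM. *Lef1*, an activator of primed cells, rose from 18.3 ± 0.591 CPM to 132 ± 6.97 CPM in 3xKD and from 28.4 ± 0.381 CPM to 342 ± 17.3 CPM in Neg (difference -0.74, lost with transcript-length offsets).

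Nodal and activin genes, which the activin A of the EpiLC medium engages, rose for 7 and fell for 3 of 19 in 3xKD (7 and 2 in Neg). Their called differences were 2 above and 7 below 0, or 1 and 3 with transcript-length offsets. The ligand *Nodal* went from 43.6 ± 1.7 CPM to 57.5 ± 3.15 CPM in 3xKD, below the fold limit, and from 86.5 ± 2.7 CPM to 74.7 ± 3.58 CPM in Neg (difference 0.61 ± 0.0718 (SE), adjusted p = 1.6e-05). Its inhibitors *Lefty1* and *Lefty2* were among the largest rises. *Lefty1* was at 0.983, 0.915 and 0.784 CPM in the 3xKD ESCs and 172, 169.8 and 159 CPM in the 3xKD EpiLCs and *Lefty2* at 0.614, 0.610 and 0.849 CPM in the 3xKD ESCs and 144, 155 and 152 CPM in the 3xKD EpiLCs. In Neg, *Lefty1* rose from 0.577 ± 0.0973 CPM to 279 ± 9.41 CPM, a difference of -1.38 ± 0.217 (SE) that was not called without Neg ESC library 3 (-1.265), and *Lefty2* rose from 0.464 ± 0.254 CPM to 115 ± 3.22 CPM, a difference that was not called. *Smad7*, an intracellular inhibitor, rose in 3xKD from 45.4 ± 0.159 CPM to 100.4 ± 2.04 CPM and was not called in Neg (difference 0.66, lost with transcript-length offsets). *Skil* (SnoN), a SMAD co-repressor, rose from 226 ± 1.9 CPM to 599 ± 16.7 CPM in 3xKD and from 162 ± 4.88 CPM to 895 ± 7.57 CPM in Neg (difference -1.05 ± 0.0458 (SE), adjusted p = 3.2e-10).

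Of 16 BMP genes and *Id* targets 2 were called higher and 2 lower in 3xKD, beside 9.42% and 9.32% of all genes tested. The ligand *Bmp4* was at 2.83, 2.26 and 3.07 CPM in the 3xKD ESCs and 4.34, 4.35 and 4.43 CPM in the 3xKD EpiLCs and at 5.5, 5.71 and 6.68 CPM in the Neg ESCs and 3.33, 3.36 and 3.79 CPM in the Neg EpiLCs, so that it was called higher in 3xKD and lower in Neg (difference 1.47 ± 0.211 (SE), adjusted p = 1.2e-04). This rise was lost without 3xKD ESC library 2 (0.569), and with transcript-length offsets the value was -0.353, and the call in Neg and the difference were lost too.

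Few histone acetylation genes were called. Of 25 acetyltransferases, deacetylases and readers 1 rose and 2 fell in 3xKD (2 and 4 in Neg), around a median of 0.02. Over all genes tested 9.42% were called higher and 9.32% lower in 3xKD. *Kat6b*, a MYST acetyltransferase, fell from 380.4 ± 10.5 CPM to 147 ± 2.2 CPM in 3xKD and from 652 ± 16 CPM to 202 ± 5.44 CPM in Neg, and *Sirt6*, a deacetylase of H3K9, from 28.3 ± 0.189 CPM to 17.7 ± 1.08 CPM. *Ep300* (log2 0.51), *Crebbp* (0.23) and *Kat2a* (0.25) stayed within the fold limit, except that *Ep300* was called with upper-quartile factors (0.588). *Sirt1* was at 49.3, 50.4 and 53.7 CPM in the 3xKD ESCs and 69.2, 66.4 and 63.8 CPM in the 3xKD EpiLCs and at 100.2, 100.3 and 106 CPM in the Neg ESCs and 92.1, 92.2 and 92 CPM in the Neg EpiLCs, with a difference of 0.53 ± 0.0612 (SE), adjusted p = 1.3e-05. Of 30 Polycomb genes 3 rose and 6 fell in 3xKD. *Phc1*, of Polycomb complex 1, rose from 449 ± 11 CPM to 1487 ± 17.3 CPM, and *Jarid2*, which recruits complex 2, from 324 ± 5.33 CPM to 888 ± 11.5 CPM. The methyltransferase *Ezh2* (log2 0.11) and *Cbx7* (0.14) were not called.

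Among genes of glucose uptake and glycolysis more falls than rises were called. Of 24 genes 10 fell and 1 rose in 3xKD, with a median log2 fold change of -0.46, against 9 and 3 and a median of -0.28 in Neg. The difference was called below 0 for 11 (7 with transcript-length offsets) and above 0 for 1. Summed over the list, the level was 31182 to 31400 CPM in the 3xKD ESCs and 24349 to 25240 CPM in the 3xKD EpiLCs. In Neg the sum was lower in both states, at 19554 to 21041 CPM in ESCs and 18984 to 19166 CPM in EpiLCs. The 2 transporters moved oppositely. *Slc2a1* (GLUT1) was at 956, 973 and 963 CPM in the 3xKD ESCs and 1740.3, 1718 and 1603 CPM in the 3xKD EpiLCs and rose, and *Slc2a3* (GLUT3) was at 3153, 3071 and 3159.8 CPM in the 3xKD ESCs and 1516, 1495 and 1476 CPM in the 3xKD EpiLCs and fell. The hexokinase *Hk2* was at 827, 811 and 819 CPM in the 3xKD ESCs and 363, 373 and 362 CPM in the 3xKD EpiLCs and at 524, 544 and 496 CPM in the Neg ESCs and 302, 288 and 308 CPM in the Neg EpiLCs, and it fell more in 3xKD (log2 -1.16 ± 0.0371 (SE), difference -0.36 ± 0.0522 (SE), adjusted p = 1.1e-04). *Hk1* fell from 192 ± 4.52 CPM to 50.7 ± 0.789 CPM and *Pfkp*, a phosphofructokinase, from 623 ± 6.94 CPM to 244 ± 5.18 CPM. Of the lactate dehydrogenases, *Ldhb* fell from 304 ± 9.52 CPM to 109 ± 6.4 CPM in 3xKD and from 99.3 ± 4.17 CPM to 63.7 ± 2.75 CPM in Neg (difference -0.85 ± 0.0669 (SE), adjusted p = 2.0e-07), and *Ldha* went from 1842 ± 16.1 CPM to 1421 ± 12 CPM, within the fold limit. *Pkm*, pyruvate kinase, was at 4282, 4286 and 4267 CPM in the 3xKD ESCs and 4271, 4178 and 4242 CPM in the 3xKD EpiLCs (log2 -0.02 ± 0.0325 (SE)), and its difference to Neg was -0.31 ± 0.0460 (SE), adjusted p = 1.6e-04. In Neg, *Pkm* averaged 3005 CPM in ESCs and 3677 CPM in EpiLCs.

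Around the pyruvate node, 2 of 18 genes rose and 7 fell in 3xKD (2 and 5 in Neg). *Pdk1*, the kinase that switches off pyruvate dehydrogenase, was at 81, 91.3 and 83.6 CPM in the 3xKD ESCs and 274, 270.4 and 274 CPM in the 3xKD EpiLCs, and *Pdk3* fell from 78.9 ± 2.37 CPM to 41.6 ± 0.920 CPM. The opposing phosphatases also parted, *Pdp1* rising from 7.4 ± 1.28 CPM to 17.9 ± 1.68 CPM and *Pdp2* falling from 87.4 ± 3.42 CPM to 29.1 ± 1.32 CPM. *Mpc1*, a subunit of the mitochondrial pyruvate carrier, was at 17.4, 18.9 and 16.9 CPM in the 3xKD ESCs and 5.27, 5.75 and 5.56 CPM in the 3xKD EpiLCs and fell (log2 -1.68 ± 0.0959 (SE)). *Pck2*, the mitochondrial enzyme that makes phosphoenolpyruvate from oxaloacetate, was at 48.6, 44.5 and 45.5 CPM in the 3xKD ESCs and 51.1, 48.5 and 48.1 CPM in the 3xKD EpiLCs and was not called. Both states of 3xKD lay above all Neg libraries of *Pck2*, which had 15.8, 18.4 and 17.1 CPM in the Neg ESCs and 13.4, 15.9 and 15 CPM in the Neg EpiLCs. *Me3*, the malic enzyme that no guide targeted, was under 1 CPM in every library.

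Of 20 TCA cycle genes 4 fell in 3xKD and 2 in Neg, and the other 16 and 18 were not called. With upper-quartile factors 2 fell in 3xKD. *Idh2*, the mitochondrial NADP-dependent isocitrate dehydrogenase, was at 124, 118 and 115 CPM in the 3xKD ESCs and 48.9, 47.2 and 42.5 CPM in the 3xKD EpiLCs, and *Idh1*, its cytosolic counterpart, at 159, 156 and 163 CPM in the 3xKD ESCs and 80.4, 80.4 and 85.2 CPM in the 3xKD EpiLCs. Both fell, *Idh2* by less than in Neg (difference 0.60 ± 0.0935 (SE), adjusted p = 2.3e-04, lost with transcript-length offsets). Citrate synthase (*Cs*) went from 301 ± 4.52 CPM to 208 ± 4.87 CPM, within the fold limit. Among genes that feed glutamine carbon and acetyl-CoA, 3 of 20 rose and 6 fell. *Glud1*, glutamate dehydrogenase, was at 276, 286 and 283 CPM in the 3xKD ESCs and 489.9, 478 and 474 CPM in the 3xKD EpiLCs and rose in 3xKD, while it was not called in Neg (341, 350.5 and 344 CPM in the Neg ESCs and 390.1, 388 and 406 CPM in the Neg EpiLCs, difference 0.58 ± 0.0438 (SE), adjusted p = 1.3e-07). *Slc38a2*, a glutamine transporter, rose from 126 ± 7.37 CPM to 324 ± 11 CPM. *Acly* (log2 -0.48) and *Acss2* (-0.51) did not pass the limits.

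In serine and one-carbon metabolism 1 of 16 genes rose and 3 fell in 3xKD. *Gldc*, of the glycine cleavage system, rose from 140.3 ± 4.02 CPM to 236 ± 3.05 CPM, and its partner *Amt* fell from 168 ± 5.63 CPM to 81.8 ± 4.76 CPM. *Phgdh*, the entry to serine synthesis, was not called (log2 -0.0024 ± 0.0428 (SE)). Of 26 genes of the ATF4 response 2 rose and 3 fell in 3xKD, beside 9.42% and 9.32% of all genes tested. In Neg 6 of these response genes rose and 3 fell. Their called differences were 1 above and 7 below 0, or 1 and 3 with transcript-length offsets. The list summed to 3884.6 to 3909.5 CPM in the 3xKD ESCs and 3277.1 to 3353.9 CPM in the 3xKD EpiLCs. In Neg the sum was lower in both states, at 2578.8 to 2708.2 CPM in ESCs and 2237.7 to 2278.4 CPM in EpiLCs. *Asns*, asparagine synthetase, was at 595, 602 and 606 CPM in the 3xKD ESCs and 232, 220.1 and 225 CPM in the 3xKD EpiLCs and at 701, 720.1 and 729 CPM in the Neg ESCs and 101, 104 and 102 CPM in the Neg EpiLCs. It fell less in 3xKD and ended above every Neg EpiLC library (difference 1.39 ± 0.0444 (SE), adjusted p = 1.2e-11). *Atf4* itself (log2 -0.26) and *Trib3* (0.32) were not called. *Ddit3* (CHOP) was at 48.2, 49.4 and 49.1 CPM in the 3xKD ESCs and 47.8, 43.6 and 49.6 CPM in the 3xKD EpiLCs and rose in Neg alone (difference -0.67 ± 0.0871 (SE), adjusted p = 4.4e-05), a rise that library size alone put at 0.577, under the limit. *Gcat* and *Ddit3* each have 2 gene IDs in the annotation, of which the one with more counts was used.

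Cholesterol synthesis and SREBP targets were mostly within the fold limit in both lines, yet the differences lay on one side. Of 26 genes 1 rose and 3 fell in 3xKD (median -0.18; Neg 0.05), and all 15 called differences were below 0. This count was 7 with library size alone and 3 with transcript-length offsets. Summed over the list, the level was 4456 to 4499 CPM in the 3xKD ESCs and 4003 to 4169 CPM in the 3xKD EpiLCs. In Neg the sum was lower in both states, at 2989 to 3173 CPM in ESCs and 3402 to 3440 CPM in EpiLCs. *Hmgcs1*, at the start of the pathway, was at 493, 494 and 493 CPM in the 3xKD ESCs and 463, 447 and 457 CPM in the 3xKD EpiLCs (difference -0.33 ± 0.0514 (SE), adjusted p = 2.5e-04). Of 22 HIF-1 targets outside glycolysis 3 rose and 6 fell in 3xKD, in cultures kept at low oxygen. Their called differences were 1 above and 8 below 0, or 0 and 3 with transcript-length offsets. The list summed to 2937.6 to 2962.3 CPM in the 3xKD ESCs and 2167.4 to 2243.5 CPM in the 3xKD EpiLCs. In Neg the sum was lower in both states, at 1595.2 to 1683.1 CPM in ESCs and 1726.2 to 1737.5 CPM in EpiLCs. *Vegfa* fell from 156 ± 0.513 CPM to 52 ± 1.94 CPM and *Ndrg1* from 350.3 ± 12.1 CPM to 133 ± 6.65 CPM, and *Egln3*, a prolyl hydroxylase of HIF, rose from 45.1 ± 1.9 CPM to 113 ± 2.74 CPM. *Epas1* (HIF-2 alpha) rose less in 3xKD than in Neg (difference -0.79 ± 0.0733 (SE), adjusted p = 1.3e-06).

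Nuclear genes of the respiratory chain had medians below 0 in both lines. Of 35 genes of complexes III to V 11 fell in 3xKD (median -0.47) and 6 in Neg (median -0.34). These counts were 6 and 3 with upper-quartile factors, and without 3xKD EpiLC library 1 the count in 3xKD was 7. The genes of complexes III to V summed to 6331.1 to 6413.6 CPM in 3xKD ESCs and 5514.7 to 5592.6 CPM in Neg ESCs. In EpiLCs the sums overlapped, at 4697.9 to 4897.5 CPM in 3xKD and 4573.7 to 4807.5 CPM in Neg. Of 37 complex I genes 3 fell in 3xKD and 2 in Neg. *Cox5a*, a subunit of cytochrome c oxidase, was at 143, 142 and 142 CPM in the 3xKD ESCs and 71.1, 69.4 and 71.6 CPM in the 3xKD EpiLCs, with a log2 fold change of -1.01 ± 0.0351 (SE), adjusted p = 5.4e-13. *Cox6b1* fell from 92.7 ± 2.75 CPM to 44.8 ± 2.89 CPM, and *Ndufs1* of complex I was not called (log2 0.01 ± 0.0406 (SE)). Among the 13 genes of the mitochondrial genome 1 was called lower in 3xKD, *mt-Nd6*, whose call was lost without 3xKD ESC library 1 (-0.552) or 3xKD EpiLC library 1 (-0.578). *mt-Co1* was at 2799.7, 2488 and 2583 CPM in the 3xKD ESCs and 2076, 2273 and 2509.5 CPM in the 3xKD EpiLCs. Its 3xKD libraries of the 2 states overlapped, and it was not called.

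Most ribosome biogenesis genes were not called, and those that were called mostly rose in both lines. Of 46 genes 13 rose and 1 fell in 3xKD (median 0.35), against 15 that rose in Neg (median 0.47). *Polr1b*, of RNA polymerase I, was at 54.2, 54 and 55.7 CPM in the 3xKD ESCs and 102, 95.1 and 93.8 CPM in the 3xKD EpiLCs and at 113, 128 and 125 CPM in the Neg ESCs and 160.4, 163 and 168 CPM in the Neg EpiLCs, with a larger rise in 3xKD from a lower ESC level (difference 0.41 ± 0.0653 (SE), adjusted p = 3.3e-04, lost with transcript-length offsets). *Ddx21*, an RNA helicase, rose from 268 ± 4.25 CPM to 489.8 ± 20.3 CPM and *Nop56*, of the box C/D particle, from 225 ± 2.21 CPM to 401 ± 11.3 CPM. *Fbl* (log2 -0.02), *Npm1* (0.11) and *Ncl* (0.49) were within the fold limit.

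The p53 targets differed between the lines in 1 direction for most of the list. Of 20 targets 1 rose and 4 fell in 3xKD (median -0.15), whereas 7 rose and 3 fell in Neg (median 0.23). The difference was called below 0 for 15 and above 0 for 1, and with transcript-length offsets below 0 for 11. *Cdkn1a* (chr17:29309936-29319701), the CDK inhibitor p21, was at 197, 199 and 193 CPM in the 3xKD ESCs and 55.7, 57.4 and 59.9 CPM in the 3xKD EpiLCs and at 160.3, 157 and 167 CPM in the Neg ESCs and 105, 90.7 and 95.3 CPM in the Neg EpiLCs. The 3xKD libraries lay above Neg in ESCs and below Neg in EpiLCs, with log2 fold changes of -1.77 ± 0.0490 (SE), adjusted p = 3.0e-14 in 3xKD and -0.73 in Neg (difference -1.03 ± 0.0678 (SE), adjusted p = 2.4e-08). *Mdm2*, the ubiquitin ligase of p53, was at 164, 157 and 164 CPM in the 3xKD ESCs and 142, 137 and 138 CPM in the 3xKD EpiLCs and at 165, 162 and 156 CPM in the Neg ESCs and 222, 209.7 and 218 CPM in the Neg EpiLCs. The ESC levels were alike and the EpiLC levels stood apart, above ESCs in Neg and below them in 3xKD (difference -0.65 ± 0.0497 (SE), adjusted p = 1.5e-07), though neither change passed the fold limit. *Phlda3* fell from 77.7 ± 1.24 CPM to 32.4 ± 1.39 CPM in 3xKD and from 98.2 ± 5.84 CPM to 58.7 ± 1.83 CPM in Neg. *Bbc3* (PUMA), which promotes apoptosis, rose in both lines and by less in 3xKD (log2 0.82 and 1.37), and *Trp53* itself was not called (log2 0.36 ± 0.0392 (SE)). The differences of *Phlda3* and *Bbc3* were lost with transcript-length offsets.

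Of 20 G1 genes 2 rose and 9 fell in 3xKD (3 and 7 in Neg), and with transcript-length offsets 5 fell in 3xKD. Among the D cyclins, *Ccnd2* rose from 3.29 ± 0.193 CPM to 14.2 ± 1.1 CPM, *Ccnd3* fell from 192 ± 1.29 CPM to 93.2 ± 2.79 CPM (a call lost with transcript-length offsets, -0.551) and *Ccnd1* went from 26.7 ± 2.11 CPM to 24.8 ± 1.86 CPM, which was not called. In Neg, *Ccnd1* went from 107 ± 6.19 CPM to 83.1 ± 0.907 CPM, and all Neg libraries lay above all 3xKD libraries. *Cdkn1c* (p57) rose less in 3xKD (log2 2.04 against 3.48, difference -1.44 ± 0.124 (SE), adjusted p = 6.1e-07).

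Epithelial and matrix genes changed in both directions. Of 20 adhesion and EMT genes 4 rose and 3 fell in 3xKD, and of 28 matrix genes 6 rose and 11 fell. Over all genes tested 9.42% were called higher and 9.32% lower in 3xKD. Among the 15032 genes that averaged at least 1 CPM 2046 were called higher and 2149 lower, which are larger shares. *Epcam* rose from 27.8 ± 0.976 CPM to 107 ± 4.35 CPM, and *Esrp1*, the epithelial splicing regulator, rose from 2.28 ± 0.366 CPM to 19.5 ± 2.17 CPM. E-cadherin (*Cdh1*) went from 225 ± 4.07 CPM to 269.7 ± 7.37 CPM and vimentin (*Vim*) from 225 ± 5.27 CPM to 172 ± 7.97 CPM, neither called. *Fn1*, fibronectin, was at 701, 674 and 705 CPM in the 3xKD ESCs and 190.2, 188 and 180.3 CPM in the 3xKD EpiLCs and at 497, 541 and 510.4 CPM in the Neg ESCs and 92.8, 101 and 98 CPM in the Neg EpiLCs. It fell in both lines, by less in 3xKD (difference 0.51 ± 0.0566 (SE), adjusted p = 8.2e-06, lost with transcript-length offsets). *Nid1*, a basement membrane linker, fell from 169.7 ± 2.6 CPM to 32.4 ± 2.69 CPM and *Lama1*, a laminin chain, from 18.2 ± 0.495 CPM to 3.56 ± 0.370 CPM, while *Col18a1* rose from 27.8 ± 2.6 CPM to 141 ± 4.82 CPM.

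**Figure D4:**
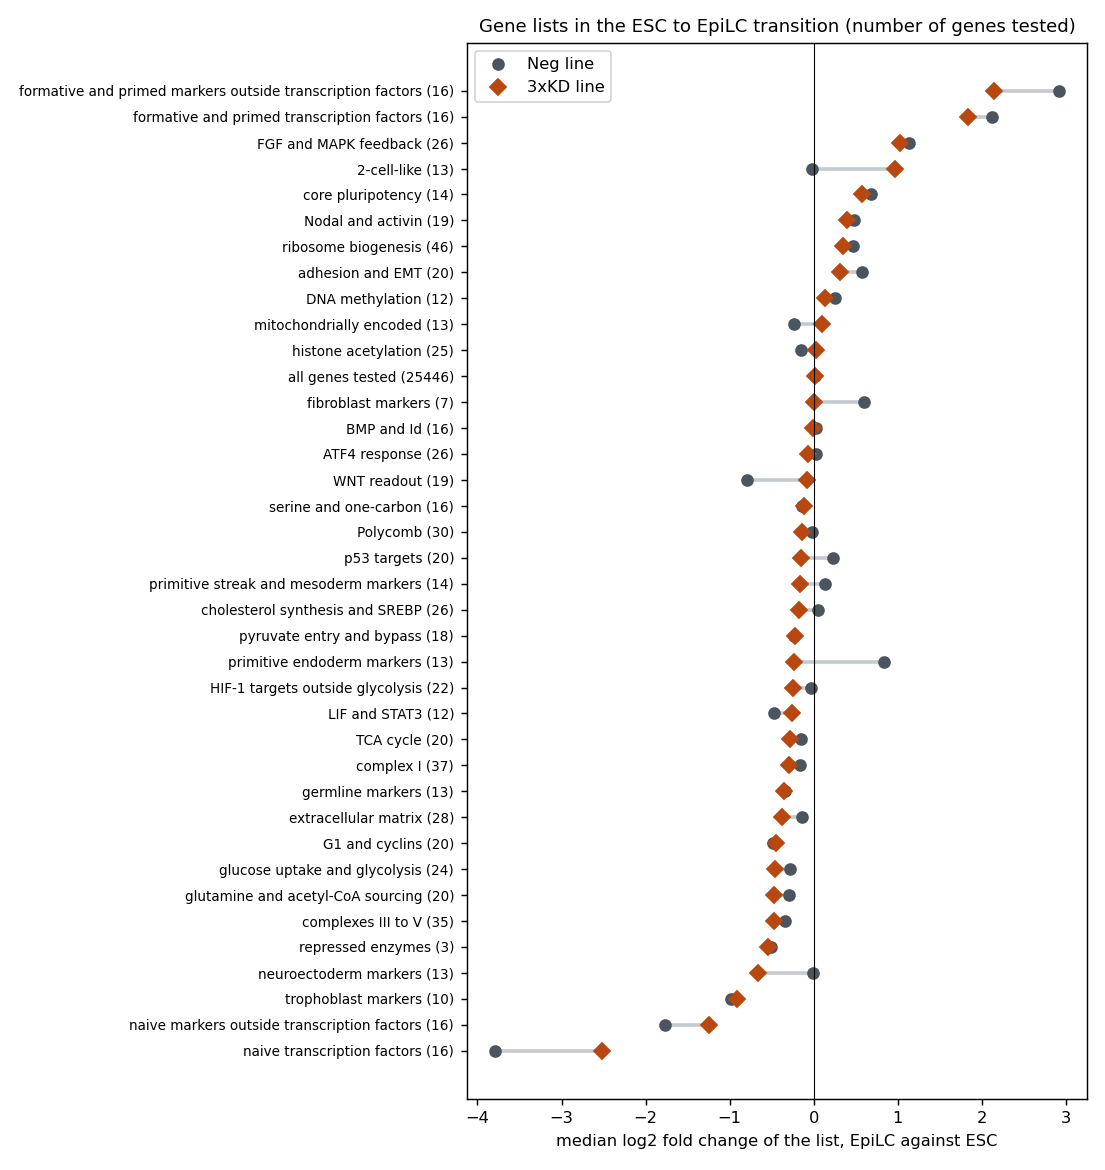
Median log2 fold change between ESCs and EpiLCs of each gene list in the Neg line (grey circle) and the 3xKD line (red diamond), with the number of genes tested in parentheses and all genes tested among the rows. The lists of naive genes sit lowest and those of formative genes highest in both lines, and the 2-cell-like list stands at 0.96 in 3xKD and -0.01 in Neg.

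Markers of other cell types differed in summed level and did not all move alike. The summed level of the 13 primitive endoderm markers tested of 14 was 58.8 to 61.7 CPM in the 3xKD ESCs and 145 to 146 CPM in the 3xKD EpiLCs, against 40.7 to 42.5 and 158 to 176 CPM in Neg. Of these markers 5 were called higher and 2 lower in 3xKD (6 and 0 in Neg). Most of the summed level in EpiLCs was *Lrp2* (megalin), which rose from 16 ± 0.417 CPM to 102 ± 2.89 CPM, whereas the defining factors *Gata4* and *Gata6* were low. *Gata4* was at 11.5, 10.4 and 11.8 CPM in the 3xKD ESCs and 9.37, 8.12 and 8.18 CPM in the 3xKD EpiLCs and not called, and *Gata6* was at 8.6, 9.39 and 9.54 CPM in the 3xKD ESCs and 4.47, 4.03 and 5.56 CPM in the 3xKD EpiLCs and at 5.32, 5.51 and 5.25 CPM in the Neg ESCs and 8.99, 8.73 and 10.9 CPM in the Neg EpiLCs. *Gata6* was called lower in 3xKD and higher in Neg (difference -1.80 ± 0.184 (SE), adjusted p = 3.7e-06). Trophoblast markers (10 of 13 tested) summed to 74.6 to 77.4 and then 18.9 to 21.2 CPM in 3xKD, and *Elf5* was under 0.1 CPM in the mean of every group. *Gata2*, the most abundant of them in ESCs, fell from 29.6 ± 0.233 CPM to 2.78 ± 0.317 CPM.

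Primitive streak and mesoderm markers (14 of 15 tested) summed to 53.9 to 60.1 and then 29.4 to 31.2 CPM in 3xKD. *Eomes* was at 24.3, 27.7 and 25.6 CPM in the 3xKD ESCs and 21.5, 20.5 and 19.5 CPM in the 3xKD EpiLCs, and *T* (Brachyury) was under 1 CPM in every library. Neuroectoderm markers (all 13 tested) summed to 161 to 166 and then 153 to 156 CPM in 3xKD, and from 145 to 162 to 218 to 226 CPM in Neg. *Sox1*, the early neural SOXB1 factor, was at 6.39, 5.3 and 7.58 CPM in the 3xKD ESCs and 20.2, 20.3 and 24.2 CPM in the 3xKD EpiLCs and at 8.07, 6.88 and 6.58 CPM in the Neg ESCs and 65.2, 66.9 and 63.7 CPM in the Neg EpiLCs. It rose in both lines and by less in 3xKD (difference -1.45 ± 0.154 (SE), adjusted p = 5.5e-06). *Nes*, nestin, fell from 71.7 ± 2.22 CPM to 30.9 ± 1.8 CPM in 3xKD, while it was not called in Neg (difference -0.79 ± 0.0943 (SE), adjusted p = 1.8e-05). Germline markers (all 13 tested) summed to 689 to 707 and then 455 to 461 CPM in 3xKD, of which *Dazl* was the most abundant in ESCs and fell from 207 ± 13.4 CPM to 82.3 ± 1.58 CPM. Fibroblast markers (7 of 10 tested), which would mark feeder cells, summed to 32.2 to 33.4 CPM in the 3xKD ESCs and 15.1 to 18.2 CPM in the 3xKD EpiLCs (10.7 to 13.9 and 6.95 to 8.66 CPM in Neg). *Col3a1* was under 0.1 CPM in the mean of every group and *Lum*, *Postn* and *Fap* had fewer than 10 counts in all. Trophoblast markers called higher and lower were 1 and 6 in 3xKD and 0 and 5 in Neg. For primitive streak and mesoderm these counts were 1 and 3 against 2 and 3, and for neuroectoderm 3 and 4 against 3 and 2. For germline they were 2 and 5 against 4 and 3, and for fibroblast markers 0 and 2 in both lines. The part of other cell types in the gene lists above was not tested.

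The largest falls in 3xKD were mostly shared with Neg. *Trpm1*, a cation channel gene, was at 82.7, 81.8 and 83.9 CPM in the 3xKD ESCs and 0.558, 0.512 and 0.624 CPM in the 3xKD EpiLCs (log2 -7.17 ± 0.0787 (SE), adjusted p = 5.2e-19), and *Aqp3*, an aquaglyceroporin, at 162, 161 and 179 CPM in the 3xKD ESCs and 2.42, 3.01 and 2.5 CPM in the 3xKD EpiLCs (log2 -5.98 ± 0.0703 (SE), adjusted p = 6.9e-19). *Spic*, a PU.1-related factor of naive cells, fell from 4.34 ± 0.331 CPM to 0.0213 ± 0.0369 CPM. With 1 count left over the 3 EpiLC libraries, the size of its log2 fold change (-7.23) depends on the prior count of the fit. Also among the 10 largest were *Gm32673*, *Cyp1a1*, *Gm49089*, *Fxyd2*, *S100a13* and *Dmgdh*, with log2 fold changes between -6.97 and -5.35.

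Among the 10 largest rises 6 genes were at 0 in all 3 3xKD ESC libraries, so that their folds are bounds against 3 counts over the group. *Gdf1*, a TGF-beta ligand, reached 3.97, 3.01 and 4.06 CPM, at least 58.8-fold higher, and in Neg it went from 0.170 ± 0.294 CPM to 3.75 ± 0.425 CPM. *Gm29895* reached 1.86, 2.94 and 1.44 CPM (at least 33.3-fold). *Obox4-ps21*, *Cwc22rt7*, *ENSMUSG00000121782* and *Gm2792* (at least 251-, 207-, 69.3- and 42.7-fold) have near-identical copies, between which estimated counts can switch, and are uncertain. The call of *Gm2792* was lost without any of 5 of the 6 3xKD libraries. Summed over 6 *Cwc22rt* genes, the mean level rose from 38.4 to 56.5 CPM in 3xKD and went from 94.2 to 40.3 CPM in Neg, and summed over 17 *Obox4* genes it was 61.6 and 125.5 CPM in 3xKD and 85.8 and 83.8 CPM in Neg. The remaining large rises were *Lefty2*, *Lefty1*, *Spry4* and *Ccdc194*, which went from 0.0203 ± 0.0352 CPM to 4.86 ± 1.02 CPM.

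Some genes changed in opposite directions or in 1 line alone. *Trh* (chr6:92219021-92221631), which encodes thyrotropin-releasing hormone, was at 1.54, 1.59 and 1.44 CPM in the 3xKD ESCs and 13.5, 12.1 and 12.8 CPM in the 3xKD EpiLCs and at 8.69, 10.2 and 9.18 CPM in the Neg ESCs and 6.28, 5.17 and 4.24 CPM in the Neg EpiLCs. It rose in 3xKD (log2 3.07 ± 0.152 (SE), adjusted p = 4.8e-11) and fell in Neg (log2 -0.84), a difference of 3.91 ± 0.202 (SE), adjusted p = 1.8e-09. *Gadd45g*, a growth arrest and DNA damage gene, was at 9.09, 9.63 and 9.67 CPM in the 3xKD ESCs and 14.9, 14.5 and 17.8 CPM in the 3xKD EpiLCs and at 1.42, 1.51 and 1.48 CPM in the Neg ESCs and 80.2, 68.6 and 78.6 CPM in the Neg EpiLCs, a far smaller rise in 3xKD (difference -4.94 ± 0.151 (SE), adjusted p = 9.2e-12). *Gbp2* and *Gbp2b*, interferon-inducible GTPases, had fitted differences of -6.86 and -6.50, whose size depends on the prior count of the fit, since the Neg ESC libraries held 0 and 1 counts of them in all. *Gbp2b* was at 5.28, 4.57 and 5.23 CPM in the 3xKD ESCs and 7.76, 8.95 and 8.93 CPM in the 3xKD EpiLCs and at 0.0886, 0 and 0 CPM in the Neg ESCs and 4.74, 4.36 and 4.74 CPM in the Neg EpiLCs, so that it was already present in 3xKD ESCs and came up in Neg only in EpiLCs. *Efhd1*, a calcium-binding mitochondrial protein, was at 2.64, 3.41 and 3.2 CPM in the 3xKD ESCs and 0.496, 0.256 and 0.375 CPM in the 3xKD EpiLCs and fell in 3xKD alone (difference -2.87 ± 0.413 (SE), adjusted p = 1.1e-04, lost with transcript-length offsets). *Gpnmb*, a transmembrane glycoprotein, fell from 4.27 ± 0.508 CPM to 0.896 ± 0.521 CPM in 3xKD and from 52.3 ± 3.13 CPM to 0.317 ± 0.121 CPM in Neg (difference 5.08). The *Eif4a3* copies *Eif4a3l1* and *Eif4a3l2* and the predicted genes *Gm21304*, *Gm21293* and *Gm6189* were also called in opposite directions, with log2 fold changes between 0.60 and 0.96 in 3xKD and between -0.75 and -0.58 in Neg. The call of *Eif4a3l1* in 3xKD was lost without 3xKD EpiLC library 2 (0.58), and those of *Gm21304* and *Gm21293* in Neg without any of several libraries (between -0.541 and -0.579).

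The position of each library along the Neg transition summarised these changes. The axis ran from the mean of the Neg ESCs at 0 to the mean of the Neg EpiLCs at 1, over the log2 CPM (pseudocount 1) of the 5292 genes called in Neg, so that the Neg libraries define it. The 3xKD ESCs stood at 0.093 (SD 0.002, n = 3) and the 3xKD EpiLCs at 0.837 (SD 0.001, n = 3). The 3 libraries of each 3xKD group differed by far less than the distance to Neg. Their distance off the axis, as a fraction of its length, was 0.441 to 0.444 in the 3xKD ESCs and 0.391 to 0.392 in the 3xKD EpiLCs, against 0.088 to 0.106 in the Neg libraries. Over all genes that averaged at least 1 CPM the positions were 0.084 and 0.816. The 5292 genes were selected for their change in Neg and not in 3xKD, which favours Neg.

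**Figure D5:**
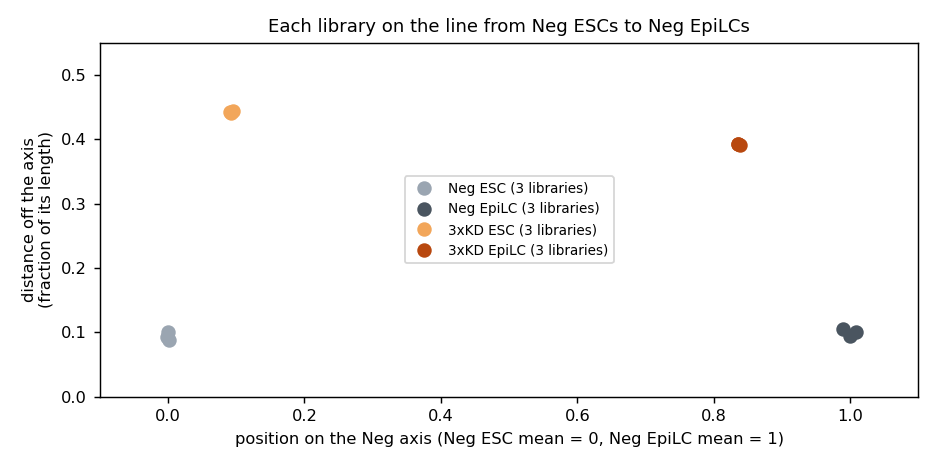
Position of each of the 12 libraries along the line from the Neg ESC mean (0) to the Neg EpiLC mean (1) on the horizontal axis and distance off that line, as a fraction of its length, on the vertical axis, over the 5292 genes called in Neg. The 3 3xKD ESC libraries sit at 0.091 to 0.095 and the 3 3xKD EpiLC libraries at 0.836 to 0.838, both further off the line than the Neg libraries.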

How the data were processed

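RNA of 12 libraries was sequenced single-end after ribosomal RNA depletion and directional library preparation, as the methods and the extract protocol describe, although the molecule field of the labels gives polyadenylated RNA. Per the study's methods and the submitters' processing notes, the authors trimmed reads with Trim Galore 0.6.7, mapped them to GRCm39 with STAR 2.7.9a and quantified transcripts with Salmon 1.10.1. The deposited tables hold, for each transcript and library, estimated counts, which the authors did not normalize, and TPM, which Salmon scaled to transcript length and library total. The deposited TPM entered no test here.

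The estimated counts were summed per gene with the deposited transcript-to-gene table and rounded. Genes that reached 10 counts over all libraries entered a quasi-likelihood fit in edgeR 4.0.16 (R 4.3.3; TMM, 4 groups). All 12 libraries were fitted together, which gives the groups a common estimate of the spread, and p-values were adjusted by Benjamini-Hochberg over all genes tested. SEs were obtained from the log2 fold change and the square root of F. Depth was 11221023 to 19652197 counts per library, and changes of genes with few counts were estimated less precisely. The fit was also run on counts simulated with its own dispersions, which cannot test the effect of scaling, transcript length or near-identical copies.

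The members and the 37 gene lists (680 genes) were chosen with earlier results of these data known, and no list was tested as a set. Some genes are members of several lists, so that the counts of these lists are not independent. Named genes are the 3 repressed enzymes, the leading genes fixed for each list, up to 3 further called members of each list with the largest change in 3xKD, the 10 largest called changes in each direction in 3xKD with a mean of at least 1 CPM and libraries that do not overlap, the 8 largest called differences in each direction with a mean of at least 1 CPM, and the 6 genes called in opposite directions with the smallest adjusted p for the difference. Gene positions are from GENCODE vM39, which matched 99.0% of the genes. The alternatives changed the scaling (RLE or upper-quartile factors, library size alone, transcript-length offsets), the filter (filterByExpr or none), the tool (DESeq2 1.42.0), the samples (groups of one line alone, each library left out), the limits, or added the replicate number as a block. Whether reads were counted by strand is not given in the sources used here, so that overlapping and antisense genes, and near-identical copies, are uncertain. Metabolite data of the study were not analysed here, and a few named genes are not reported here.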

Additional observations from a re-analysis of the deposited data

Results flagged for a closer look

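The transition differed between the lines for 2553 genes, by the interaction test of edgeR described above. With transcript-length offsets 731 differences were called. Trophoblast markers, genes of the pyruvate node and mitochondrially encoded genes then kept no called difference. Adhesion and EMT, matrix, neuroectoderm and germline genes kept none above 0. WNT readout, BMP and *Id*, and histone acetylation genes kept none below 0. Losses in other lists are not marked in this section. The named genes with a called difference that are reported are given here with the log2 fold change in 3xKD minus that in Neg. Among naive transcription factors, it was above 0 for *Nanog* (0.95), *Esrrb* (1.23), *Klf2* (0.87), *Klf4* (1.40), *Tfcp2l1* (0.84), *Tbx3* (0.84), *Zfp42* (1.32), *Nr5a2* (1.21) and *Gbx2* (1.84). Among naive markers outside transcription factors, it was above 0 for *Dppa3* (2.09), *Tdh* (0.63), *Jam2* (1.17), *Tcl1* (0.88) and *Mylpf* (1.52) and below 0 for *Dppa5a* (-0.37). Among formative and primed transcription factors, it was above 0 for *Myc* (2.38) and below 0 for *Pou3f1* (-2.17), *Sox3* (-1.0) and *Lef1* (-0.74). Among formative and primed markers outside transcription factors, it was below 0 for *Dnmt3b* (-0.93) and *Pim2* (-1.44). Among core pluripotency genes, it was above 0 for *Dppa4* (0.44) and below 0 for *Pou5f1* (-0.35), *Sall4* (-0.26), *Lin28a* (-0.59), *Foxp1* (-2.10) and *Tdgf1* (-0.34). Among 2-cell-like genes, it was above 0 for *Zscan4c* (0.98), *Zscan4d* (0.99) and *Zscan4b* (1.18).

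Among LIF and STAT3 genes, it was above 0 for *Il6st* (1.05) and *Stat3* (0.71). Among FGF and MAPK genes, it was above 0 for *Spry2* (0.94), *Spry4* (1.03), *Dusp6* (1.56), *Etv4* (1.31) and *Etv5* (0.27) and below 0 for *Fgf4* (-1.69), *Fgfr2* (-1.86), *Egr1* (-1.23) and *Fgf15* (-2.86). Among WNT readout genes, it was above 0 for *Axin2* (1.15) and *Sp5* (3.59) and below 0 for *Tcf7l1* (-0.27). Among Nodal and activin genes, it was above 0 for *Nodal* (0.61) and *Smad7* (0.66) and below 0 for *Lefty1* (-1.38), *Skil* (-1.05) and *Ltbp3* (-1.55). Among BMP and *Id* genes, it was above 0 for *Bmp4* (1.47), *Id1* (2.36) and *Id3* (2.01) and below 0 for *Id2* (-1.78). Among DNA methylation genes, it was above 0 for *Tet1* (0.29) and *Tet2* (0.77) and below 0 for *Dnmt1* (-0.29), *Dnmt3a* (-0.82) and *Uhrf1* (-0.40). Among histone acetylation genes, it was above 0 for *Sirt1* (0.53) and *Kat6b* (0.32) and below 0 for *Crebbp* (-0.25) and *Hdac9* (-1.18). Among Polycomb genes, it was above 0 for *Cbx7* (0.28) and *Jarid2* (0.30) and below 0 for *Phc1* (-0.18).

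Among glucose uptake and glycolysis genes, it was below 0 for *Hk2* (-0.36), *Pkm* (-0.31), *Ldha* (-0.36) and *Ldhb* (-0.85). Among genes of the pyruvate node, it was above 0 for *Pdk1* (0.54) and *Pdp2* (0.41) and below 0 for *Mpc1* (-0.61). Among TCA cycle genes, it was above 0 for *Idh2* (0.60) and below 0 for *Cs* (-0.26) and *Sdhd* (-0.35). Among glutamine and acetyl-CoA genes, it was above 0 for *Glud1* (0.58) and *Acss1* (0.78). Among serine and one-carbon genes, it was above 0 for *Amt* (0.43) and *Gcat* (0.60). Among ATF4 response genes, it was above 0 for *Asns* (1.39) and below 0 for *Atf4* (-0.23) and *Ddit3* (-0.67). Among cholesterol genes, it was below 0 for *Hmgcs1* (-0.33). Among HIF-1 targets, it was below 0 for *Bnip3* (-0.30), *Egln3* (-0.43), *Adm* (-2.07) and *Epas1* (-0.79). Among genes of complexes III to V, it was below 0 for *Atp5mc1* (-0.31) and *Atp5f1c* (-0.35). Among mitochondrially encoded genes, it was above 0 for *mt-Nd1* (0.55). Among ribosome biogenesis genes, it was above 0 for *Polr1b* (0.41). Among p53 targets, it was below 0 for *Cdkn1a* (-1.03), *Mdm2* (-0.65), *Phlda3* (-0.52) and *Bbc3* (-0.55). Among G1 genes, it was above 0 for *Cdk6* (0.60) and below 0 for *Cdkn1c* (-1.44).

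Among adhesion and EMT genes, it was above 0 for *Fn1* (0.51), *Cldn4* (0.55) and *Grhl2* (0.46) and below 0 for *Cdh1* (-0.34) and *Zeb2* (-1.12), the last of which was 1.06 with transcript-length offsets. Among matrix genes, it was above 0 for *Lamc1* (0.35). Among primitive endoderm markers, it was below 0 for *Gata6* (-1.80) and *Lrp2* (-0.53). Among trophoblast markers, it was above 0 for *Cdx2* (3.08), *Gata2* (0.71) and *Tead4* (1.24). Among neuroectoderm markers, it was above 0 for *Tubb3* (0.67) and below 0 for *Sox1* (-1.45), *Nes* (-0.79) and *Dll1* (-0.99). Among germline markers, it was above 0 for *Tfap2c* (0.93) and *Kit* (0.44) and below 0 for *Ddx4* (-0.60) and *Dazl* (-0.32). Among the largest falls in 3xKD, it was above 0 for *Aqp3* (1.13). Among the largest rises in 3xKD, it was above 0 for *Obox4-ps21* (12.40), *Cwc22rt7* (21.28) and *ENSMUSG00000121782* (16.50). Among the largest differences above 0, it was above 0 for *Gm7739* (16.21), *Rnu1a1* (10.65), *Gm26444* (10.54), *Gpnmb* (5.08) and *Dnah9* (4.73). Among the largest differences below 0, it was below 0 for *Gbp2* (-6.86), *Gbp2b* (-6.50), *Gadd45g* (-4.94), *Clca1* (-3.52), *Atp1a4* (-3.24), *Nrcam* (-3.03), *H2-Q2* (-2.95) and *Efhd1* (-2.87). Among genes called in opposite directions, it was above 0 for *Gm21304* (1.54), *Trh* (3.91), *Gm21293* (1.52), *Eif4a3l1* (1.26), *Gm6189* (1.53) and *Eif4a3l2* (1.43). The differences of *Cwc22rt7*, *Obox4-ps21*, *ENSMUSG00000121782*, *Gm7739*, *Rnu1a1* and *Gm26444* rest on libraries listed at 0 and on genes with near-identical copies, so that their size depends on the prior count of the fit. The same dependence holds for *Gbp2*, *Gbp2b*, *Clca1*, *Dnah9* and *Sp5*, each with 3 or fewer counts over the libraries of a group. With 3 libraries a group, no single library was tested as an outlier.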

How the results depend on the processing

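In the main analysis 267 list members were called in the 3xKD transition, 277 in the Neg transition and 231 in the difference. The cause of the changes below was not tested unless the setting itself states it. With library size alone, 824 differences were called below 0. With transcript-length offsets 731 differences were called, 337 above and 394 below 0, with 104 list members among them. These offsets turned the sign of 3 named values, *Bmp4* in 3xKD (-0.353), *Col4a1* in Neg (-0.559) and the difference of *Zeb2* (1.058), and 104 other named values lost their call. At an adjusted p under 0.05 with no fold limit 10838 genes were called in 3xKD (5234 higher, 5604 lower; 526 list members), 11231 in Neg (5585 and 5646; 503) and 4127 in the difference (1950 and 2177). With the fold limit raised to a log2 fold change of 1, 2874 were called in 3xKD (1495 and 1379; 166), 3435 in Neg (1759 lower; 167) and 563 in the difference (329 and 234; 56), and *Me1* in ESCs (-0.891) and *Me2* in ESCs (-0.951) and EpiLCs (-0.978) lost their calls against Neg. The position on the Neg axis was 0.084 in 3xKD ESCs and 0.816 in 3xKD EpiLCs over all genes that averaged at least 1 CPM, and 0.839 and 0.835 in 3xKD EpiLCs with upper-quartile factors and library size alone.

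When single libraries were left out, the calls numbered 4419 to 4802 in 3xKD (2153 to 2421 higher, 2192 to 2383 lower), 4888 to 5263 in Neg (2229 to 2652 higher, 2463 to 2798 lower) and 2084 to 2575 in the difference (969 to 1156 above 0, 1069 to 1548 below 0). List members called were 259 to 268, 271 to 278 and 205 to 238. The repressed enzymes against Neg lay between -1.159 and -1.102 (*Pcx*), -0.916 and -0.858 (*Me1*) and -0.988 and -0.917 (*Me2*) in ESCs, and between -1.11 and -0.968, -1.089 and -0.972, and -1.008 and -0.955 in EpiLCs. The position was 0.092 to 0.094 in 3xKD ESCs and 0.836 to 0.837 in 3xKD EpiLCs.

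The replicate numbers were not used to pair the samples in the main fit. Deviations of same-numbered 3xKD ESC and EpiLC libraries correlated at -0.012, -0.022 and 0.074. Those of differently numbered 3xKD libraries correlated at -0.127 to 0.154. Low correlations cannot show that the samples were not paired. With the replicate number as a block 4664 genes were called in 3xKD (2316 higher, 2348 lower), 5169 in Neg and 2321 in the difference. Counts per library limit what the fit can show for genes near 1 CPM, and copies of near-identical genes cannot be told apart by these estimated counts.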
